A study of Mus musculus with 19 samples.

Results

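The genes of the proteasome, its activators and its assembly factors were followed in ribosome-bound mRNA of mouse spinal cord cholinergic neurons over the day. Members were the rows of the count table whose symbol starts with Psm, then a letter from a to g, then a digit, without pseudogenes. This gave 51 of 50559 genes. Psmc3ip and Psme3ip1 meet the rule but are named for binding a subunit, and they are given apart. Of the other 49 genes, 19 were assigned by symbol to the core particle (Psma and Psmb), 6 to the base (Psmc), 14 to the lid (Psmd) and 10 to activators and assembly (Psme, Psmf and Psmg). Of these, 47 passed the filter on low counts and were tested over time. Psma8, an alpha subunit of the testis, had 24 counts in all 18 immunoprecipitates together, and Psmb11, a subunit of the thymus, had 52.

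The mice were 10-week-old males of the C57BL/6J background that carried ChAT-Cre and 1 floxed RiboTag allele (fx/+), and the study calls them wild-type (WT). ChAT-Cre acts in cells that express or once expressed choline acetyltransferase, where RiboTag puts a hemagglutinin tag on a ribosomal protein, so that precipitating the tag recovers mRNA bound to their ribosomes. Spinal cords were taken at ZT0, ZT4, ZT8, ZT12, ZT16 and ZT20 (Zeitgeber time, hours after lights on, in 12 h light and 12 h dark), with 3 biological replicates per time point, each from 1 spinal cord. The control was a single library of pooled input, the homogenate before precipitation, which per the methods comes from the whole cord although its label names cholinergic neurons. All groups shared genotype, sex, age and light cycle, so the design holds no comparison between genotypes.

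The proteasome is the large protease that degrades proteins marked with ubiquitin. Its core particle is a barrel of alpha and beta rings with the protein-cutting sites on beta subunits. The regulatory particle has a base, a ring of ATPases that unfolds substrates, and a lid that removes ubiquitin chains before the substrate enters. Chaperones build the rings, and other activators can cap the core particle in place of the regulatory particle. Neurons rely on the complex to clear damaged proteins, and subunits are needed in fixed proportions in the finished particle. Symbols do not follow function throughout: Psmd1, Psmd2 and Psmd4 belong to the base, and Psmd5, Psmd9 and Psmd10 are chaperones of the base.

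The 19 libraries held between 6302150 and 22406844 expected counts (median 15239792). The 49 genes took 0.726% to 0.935% of the counts of an immunoprecipitate and 0.354% of those of the input. Levels are given in CPM, which are counts relative to the scaled library size. Of 7 markers of cholinergic neurons, 6 were at least 2-fold above the input with all 18 immunoprecipitates above it. Chat, the exception, had a mean of 39.5 CPM against 13.0 CPM in the input, with its lowest immunoprecipitate at 8.29 CPM. All 7 oligodendrocyte, 6 astrocyte and 6 microglia markers were at least 2-fold below the input, as were 3 of 4 inhibitory neuron markers. Gad1, also an inhibitory neuron marker, was not, with a mean of 127.8 CPM against 140.1 CPM in the input. No marker of any list was at 0 in all libraries of a time point, so RNA of other cells remained. In such bulk samples, fewer cells of a type and less RNA per cell cannot be told apart.

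Several proteasome genes differed between ZT8, in the light phase, and ZT0 or ZT16, and within every subcomplex some rose while others fell. At ZT8, genes for the core particle such as Psmb4, for the base such as Psmc5 and for the lid such as Psmd13 were at their highest. Psmb7, Psmc2 and Psmd14, of the same subcomplexes, were at their lowest. The 2 comparisons that showed this, ZT8 against ZT0 and ZT16 against ZT8, share the 3 ZT8 libraries and are therefore not independent of each other. Of all 15 pairs of time points, these were the 2 in which a proteasome gene passed the threshold. Tests were edgeR's quasi-likelihood tests fitted on all 15572 genes that passed the filter, with Benjamini-Hochberg adjustment and a threshold of 0.05.

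In ZT8 against ZT0, 13 of 47 genes rose (27.7%; 8.95% of all genes tested were called higher) and 6 fell (12.8%; 9.02% of all genes were called lower). In ZT16 against ZT8, 8 rose (17.0%; 9.11% of all genes) and 11 fell (23.4%; 7.8% of all genes). The median log2 fold change of the 47 genes was 0.10 at ZT8 against ZT0, beside −0.00296 for all genes, and −0.03 at ZT16 against ZT8, beside 0.00472 for all genes. The medians stayed near 0 while single genes ranged from −0.99 to 0.97 in the first comparison and from −0.82 to 0.94 in the second. The number of calls rested strongly on single libraries. Without ZT8 replicate 2, Psmc2 and Psmd14 were the 2 genes still called in ZT8 against ZT0, and Psmd14 was the 1 gene still called in ZT16 against ZT8. Over all genes, calls fell from 2798 to 274 and from 2633 to 87 under that omission. Without ZT16 replicate 2, Psmb7 was the 1 gene called in ZT16 against ZT8, of 72 among all genes. Leaving out ZT8 replicate 3 gave 9 and 5 calls (1114 and 931 of all genes). Leaving out ZT16 replicate 1 gave 4 in ZT16 against ZT8 (892 of all genes), and leaving out ZT0 replicate 1 or 3 gave 7 or 8 in ZT8 against ZT0 (639 or 1128 of all genes). No called gene reversed its direction in any alternative computed. The alternatives re-use these libraries and cover genes picked for their change, so a reversal was unlikely from the outset.

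Markers of the tagged cells moved in the same comparisons. Of 7 cholinergic markers, 4 fell and 0 rose in ZT8 against ZT0, and 5 rose and 0 fell in ZT16 against ZT8. In CPM, their sum was 4295 to 4768 in the libraries of ZT0, 4230 to 4685 at ZT8 and 4623 to 5027 at ZT16. Prph made up most of this sum, with 2363 to 2794 CPM at ZT0 and 3024 to 3338 CPM at ZT8. The sum therefore hides lower levels of other markers. Chat had 47.2 to 68.5 CPM at ZT0 and 8.31 to 23.3 CPM at ZT8, and Slc18a3 had 636 to 812 and 244 to 537 CPM. Mnx1, like Prph, was not lower, with 25.4 to 28.7 and 27.2 to 30.9 CPM. The median log2 fold change of the 7 markers was −0.64 (−1.74 to 0.32) at ZT8 against ZT0. It was 0.59 (−0.19 to 1.77) at ZT16 against ZT8. Summed oligodendrocyte markers reached 1932 to 2887 CPM at ZT16 and 1744 to 2002 CPM at ZT8, and 1 of the 7 was called in each comparison. Of 4 inhibitory neuron markers, 2 fell in ZT8 against ZT0, and 1 of 5 microglia markers rose in ZT8 against ZT0 and fell in ZT16 against ZT8. Chat also varied between replicates. It had 18.3, 37.3 and 54.0 CPM at ZT12, 60.4, 84.9 and 25.8 at ZT16, then 54.4, 51.7 and 20.3 at ZT20. In the same libraries, Psmb4 had 635, 545 and 472 CPM, then 435, 374 and 601, then 455, 469 and 539.5. Psmb7 had 326, 318 and 301 CPM, then 351, 310.3 and 326, then 332, 275 and 306. ZT8 replicate 2 had the lowest Chat and the highest Psmb4 of all 18 libraries. The part of the cholinergic, inhibitory and microglia markers in the results, between or within time points, was not tested. With the oligodendrocyte level of each library as a covariate, 20 and 19 proteasome genes were called in the 2 comparisons. Over all genes, 2967 and 2749 were called with it, beside 2798 and 2633 without it. Red blood cell genes summed to 597 to 750 CPM at ZT12 and to at most 431 CPM at any other time point, and their part was not tested.

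**Figure D1:**
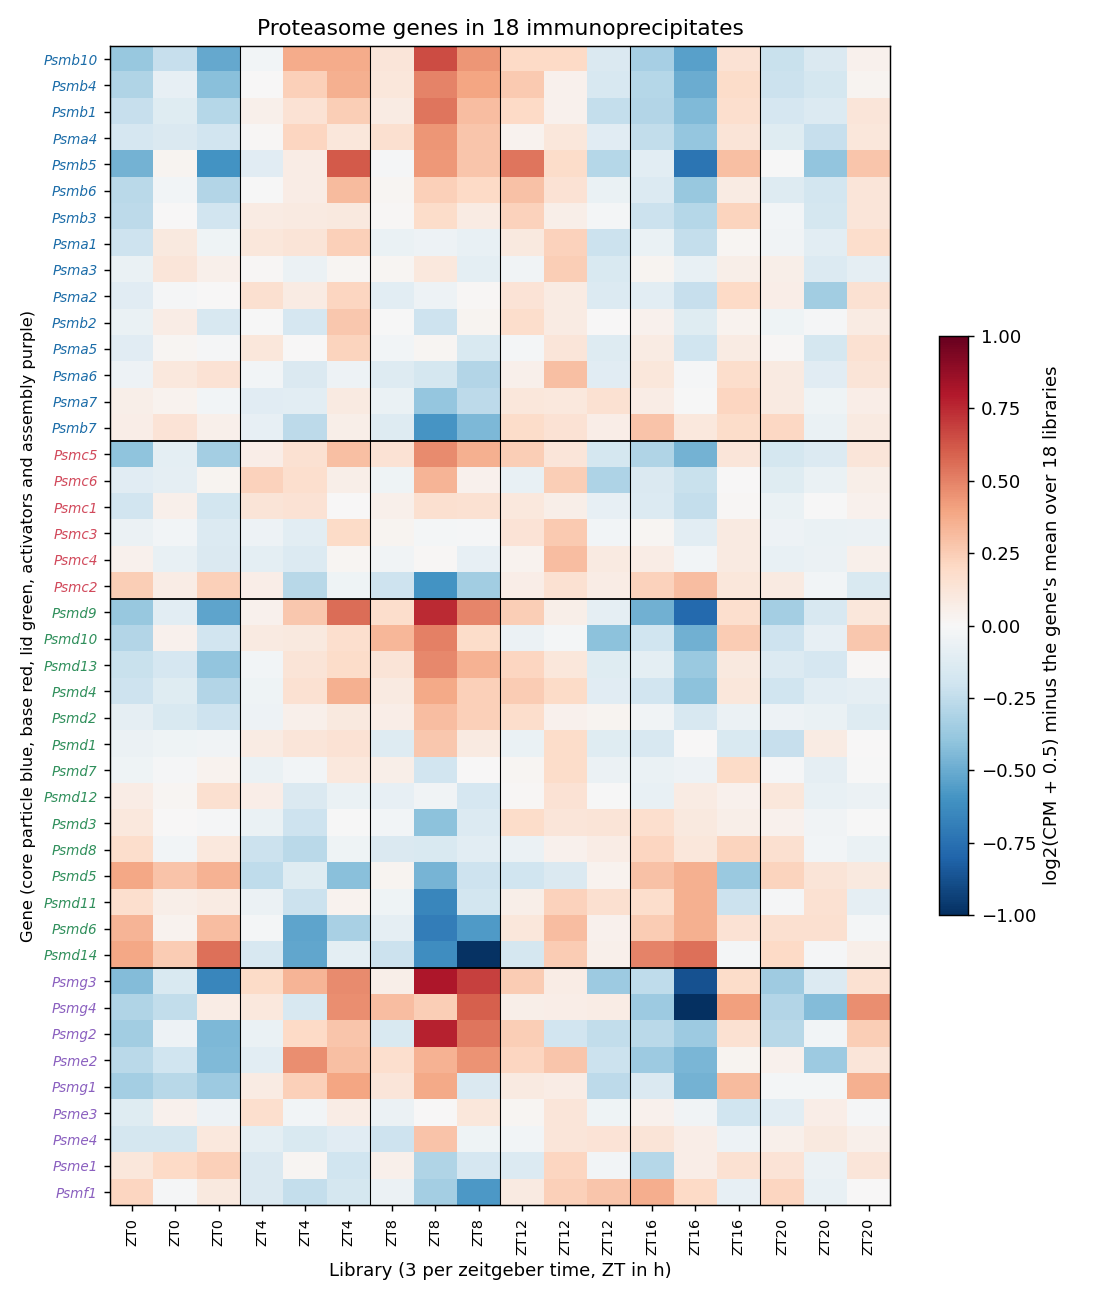
Each row is 1 of the 44 genes with a mean of at least 3 CPM, each column 1 of 18 libraries in order of ZT, and the colour is log2(CPM + 0.5) minus the gene's own mean. Red blocks (Psmb10, Psmd9, Psmg3) and blue blocks (Psmb7, Psmd6, Psmd14) both lie at ZT8 within subcomplexes, and ZT8 replicate 1 is paler than the other 2 libraries of that time.

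In the core particle, 4 of 17 tested genes rose from ZT0 to ZT8 and 1 fell. Those higher at ZT8 were Psma4, an alpha ring subunit, Psmb1 and Psmb4, structural beta subunits, and Psmb10, the inducible catalytic subunit of the immunoproteasome. Psmb10 had 39.8, 44.3 and 36.3 CPM at ZT0, 50.9, 67.3 and 67.2 at ZT4, 56.6, 81.8 and 70.8 at ZT8, 59.8, 59.6 and 47.0 at ZT12, 41.3, 35.4 and 57.3 at ZT16, then 44.3, 46.9 and 53.5 at ZT20. All ZT8 libraries lay above all ZT0 libraries, and ZT16 replicate 3 lay among those of ZT8. The log2 fold change was 0.80 ± 0.17 (SE, adjusted p = 0.00714) at ZT8 against ZT0 and −0.65 ± 0.17 (adjusted p = 0.0156) at ZT16 against ZT8. Psmb4 had 429, 499 and 396 CPM at ZT0, 529, 625 and 675 at ZT4, 571, 747 and 695 at ZT8, 635, 545 and 472 at ZT12, 435, 374 and 601 at ZT16, then 455, 469 and 539.5 at ZT20. As for Psmb10, ZT8 did not overlap ZT0, and 1 ZT16 library reached into the range of ZT8. Its log2 fold changes were 0.61 ± 0.15 (adjusted p = 0.0128) and −0.51 ± 0.15 (adjusted p = 0.0282). Psma4 had 136, 138.5 and 134 CPM at ZT0, 154, 177 and 165.5 at ZT4, 171, 207 and 185 at ZT8, 157, 165.5 and 141 at ZT12, 129, 116 and 167 at ZT16, then 141, 129.8 and 165 at ZT20. Its ZT8 libraries lay above those of ZT0, ZT16 and ZT20, with log2 fold changes of 0.46 ± 0.12 (adjusted p = 0.0157) and −0.45 ± 0.12 (adjusted p = 0.0188). Psmb1 gave 0.53 ± 0.15 (adjusted p = 0.0174) and −0.49 ± 0.15 (adjusted p = 0.0271).

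Psmb7, the constitutive subunit with the trypsin-like site, was lower at ZT8. It had 302, 316 and 298.5 CPM at ZT0, 272, 240.1 and 300.5 at ZT4, 264, 191 and 211 at ZT8, 326, 318 and 301 at ZT12, 351, 310.3 and 326 at ZT16, then 332, 275 and 306 at ZT20. The 3 ZT8 libraries were below all libraries of ZT0, ZT16 and ZT20. The log2 fold change was −0.46 ± 0.11 (adjusted p = 0.0106) at ZT8 against ZT0 and 0.57 ± 0.11 (adjusted p = 0.00699) at ZT16 against ZT8. Psmb10 takes the place of Psmb7 when immunoproteasomes are built, and the pair moved in opposite directions at ZT8. Per kilobase of transcript the level of Psmb7 was 251 CPM and that of Psmb10 was 40.7 CPM over all 18 libraries. Psma7, an alpha subunit, had 153, 151 and 144 CPM at ZT0, 135, 136 and 156 at ZT4, 140.3, 112 and 122 at ZT8, 159, 158 and 163 at ZT12, 155, 146 and 170.4 at ZT16, then 156, 142 and 154 at ZT20. ZT8 lay below ZT0 and ZT16, but only the second difference passed, with −0.26 ± 0.10 (adjusted p = 0.0730) and then 0.33 ± 0.10 (adjusted p = 0.0251). Psma6, another alpha subunit, had 132, 148 and 152 CPM at ZT0, 135, 124 and 132 at ZT4, 126, 121 and 112 at ZT8, 142, 169 and 127 at ZT12, 149, 136 and 155 at ZT16, then 147, 127 and 150.5 at ZT20. Its ZT8 libraries were below those of ZT0 and ZT16, and neither difference passed, with −0.27 ± 0.11 (adjusted p = 0.0923) and 0.29 ± 0.11 (adjusted p = 0.0674).

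The other 10 tested core genes passed neither comparison. For Psma1, Psma2, Psma3, Psma5 and Psmb2 the log2 fold changes lay between −0.03 and 0.04 in both comparisons, with SEs of 0.10 to 0.12. Psmb5, the constitutive subunit with the chymotrypsin-like site, spread more widely between replicates, with 0.57 ± 0.25 (adjusted p = 0.118) and −0.36 ± 0.25 (adjusted p = 0.339). Psmb6, with the caspase-like site, gave 0.35 ± 0.13 (adjusted p = 0.0656) and −0.29 ± 0.13 (adjusted p = 0.131). Psmb8 and Psmb9, the other inducible catalytic subunits, had means of 1.20 and 0.427 CPM, and a change of their size was not detectable at this depth, with SEs of 0.57 to 0.91.

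**Figure D2:**
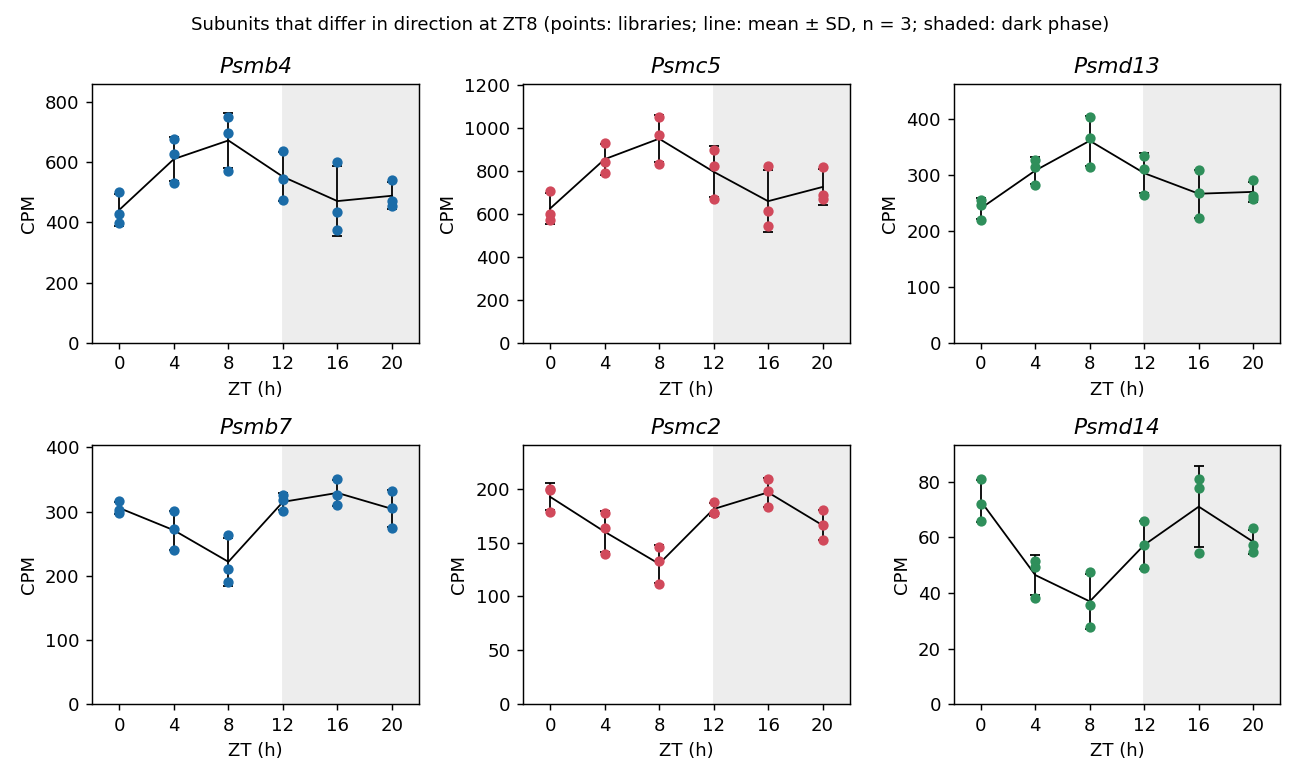
CPM against ZT for Psmb4, Psmc5 and Psmd13 (top) and Psmb7, Psmc2 and Psmd14 (bottom), with 1 point per library and the line joining means ± SD (n = 3 per time point). The top genes have their highest mean and the bottom genes their lowest mean at ZT8, and the ZT16 means of the bottom genes are 329, 197 and 71.0 CPM.

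The base gave 1 called gene in each direction among its 6 members. Psmc5 encodes an ATPase whose tail docks on the alpha ring. It had 572, 703.5 and 596 CPM at ZT0, 790.3, 839 and 930.3 at ZT4, 833, 1047 and 965 at ZT8, 896 and 822 at ZT12 with 666.5 in the third library, 611, 544 and 820.0 at ZT16, then 666.5, 688 and 819 at ZT20. The ZT8 libraries lay above every library of ZT0, ZT16 and ZT20. The log2 fold change was 0.60 ± 0.14 (adjusted p = 0.00923) and −0.53 ± 0.14 (adjusted p = 0.0171). Psmc2, another of the ATPases of the same ring, had 200.2, 178 and 199 CPM at ZT0, 177, 139 and 164 at ZT4, 146, 112 and 133 at ZT8, 177, 188 and 178 at ZT12, 198, 209 and 183 at ZT16, then 180.0, 166 and 152 at ZT20. Here ZT8 lay below ZT0, ZT16 and ZT20, with −0.56 ± 0.11 (adjusted p = 0.00589) and 0.59 ± 0.11 (adjusted p = 0.00663). Psmc1, higher at ZT8 than at ZT16 by its mean, had 299.8, 355 and 301 CPM at ZT0, 354.5, 384 and 381 at ZT8 and 312.5, 291 and 346 at ZT16. Its values at ZT4 were 375, 379 and 343 CPM, at ZT12 368, 357 and 323 CPM, and at ZT20 328, 341.5 and 353 CPM. ZT8 overlapped ZT0 but not ZT16, and neither difference passed, with 0.23 ± 0.09 (adjusted p = 0.0936) and −0.24 ± 0.09 (adjusted p = 0.0838). Psmc4 had 199.5, 184 and 175 CPM at ZT0, 182, 177 and 196 at ZT4, 189.7, 196 and 183 at ZT8, 199, 241 and 206.5 at ZT12, 204, 190.2 and 207 at ZT16, then 184, 186 and 201 at ZT20. ZT8 overlapped ZT0, ZT16 and ZT20, and neither comparison passed, with 0.02 ± 0.09 at ZT8 against ZT0 and 0.08 ± 0.09 at ZT16 against ZT8. Psmc3 and Psmc6 passed neither comparison.

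Among the 14 Psmd genes, 5 rose and 3 fell from ZT0 to ZT8. Psmd14 encodes the deubiquitinase of the lid, and it had the largest negative change of all 47 genes. It had 72.0, 66.0 and 81.0 CPM at ZT0, 49.4, 38.4 and 51.6 at ZT4, 47.5, 35.8 and 27.6 at ZT8, 48.8, 65.8 and 57.2 at ZT12, 77.8, 80.9 and 54.3 at ZT16, then 63.2, 54.6 and 57.3 at ZT20. Its mean was 73.0 ± 7.57 CPM (SD, n = 3) at ZT0, 37.0 ± 10.0 CPM at ZT8 and 71.0 ± 14.5 CPM at ZT16, with ZT8 below every library of those times and of ZT20. The log2 fold changes were −0.99 ± 0.18 (adjusted p = 0.00519) and 0.94 ± 0.18 (adjusted p = 0.00692). The gene lies at chr2:61711694-61800376 (GRCm38.p6). Psmd6, a scaffold subunit of the lid, had 124, 99.9 and 121 CPM at ZT0, 96.6, 67.8 and 78.0 at ZT4, 91.6, 60.4 and 65.7 at ZT8, 106, 121.5 and 101 at ZT12, 117, 125 and 108 at ZT16, then 109, 109 and 96.4 at ZT20. Its ZT8 libraries lay below ZT0, ZT16 and ZT20, with −0.67 ± 0.15 (adjusted p = 0.00777) and 0.69 ± 0.15 (adjusted p = 0.00823).

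Psmd13, also a scaffold subunit of the lid, moved the other way. It had 246, 256 and 219 CPM at ZT0, 282, 314 and 328 at ZT4, 314.5, 403 and 366 at ZT8, 334, 311 and 265 at ZT12, 268, 223 and 308.5 at ZT16, then 262, 256.5 and 291 at ZT20. ZT8 lay above ZT0, ZT16 and ZT20, with 0.59 ± 0.12 (adjusted p = 0.00677) and −0.44 ± 0.12 (adjusted p = 0.0204). Psmd9, a chaperone of the base, had 50.4, 61.1 and 45.5 CPM at ZT0, 67.8, 79.4 and 97.3 at ZT4, 74.4, 110.5 and 92.5 at ZT8, 78.0, 68.5 and 61.7 at ZT12, 47.0, 38.1 and 73.9 at ZT16, then 51.7, 58.6 and 71.2 at ZT20. ZT16 replicate 3 came to just under the lowest ZT8 library, and the fold changes were 0.83 ± 0.20 (adjusted p = 0.0109) and −0.81 ± 0.20 (adjusted p = 0.0129).

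The remaining calls in the Psmd group concerned subunits of the base, its chaperones and subunits of the lid. Psmd2, a docking subunit of the base, gave 0.36 ± 0.08 (adjusted p = 0.00900) and −0.29 ± 0.08 (adjusted p = 0.0220), and Psmd4, a ubiquitin receptor, gave 0.45 ± 0.13 (adjusted p = 0.0227) and −0.39 ± 0.13 (adjusted p = 0.0439). Both were higher at ZT8. Of the chaperones of the base, Psmd10 was higher at ZT8 than at ZT0 by 0.50 ± 0.17 (adjusted p = 0.0484) and Psmd5 lower by −0.55 ± 0.16 (adjusted p = 0.0220). Their changes at ZT16 against ZT8 were −0.47 ± 0.17 (adjusted p = 0.0646) and 0.34 ± 0.16 (adjusted p = 0.153). Psmd3 and Psmd8, subunits of the lid, rose from ZT8 to ZT16 by 0.29 ± 0.10 (adjusted p = 0.0449) and 0.32 ± 0.09 (adjusted p = 0.0237). Grouped by role within the symbol rule, 4 of 8 lid genes rose and 1 fell from ZT8 to ZT16, and 1 of 9 base genes rose and 3 fell. The difference between the groups was not tested. The call of Psmd10 was lost in 20 of 29 alternatives, library totals and the filter at 10 counts among them, that of Psmd3 in 20 of 29 and that of Psmd4 at ZT16 against ZT8 in 16 of 29. Psmd7, the partner of Psmd14 in the lid, gave −0.04 ± 0.10 and 0.07 ± 0.10, and Psmd1, Psmd11 and Psmd12 passed neither comparison.

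**Figure D3:**
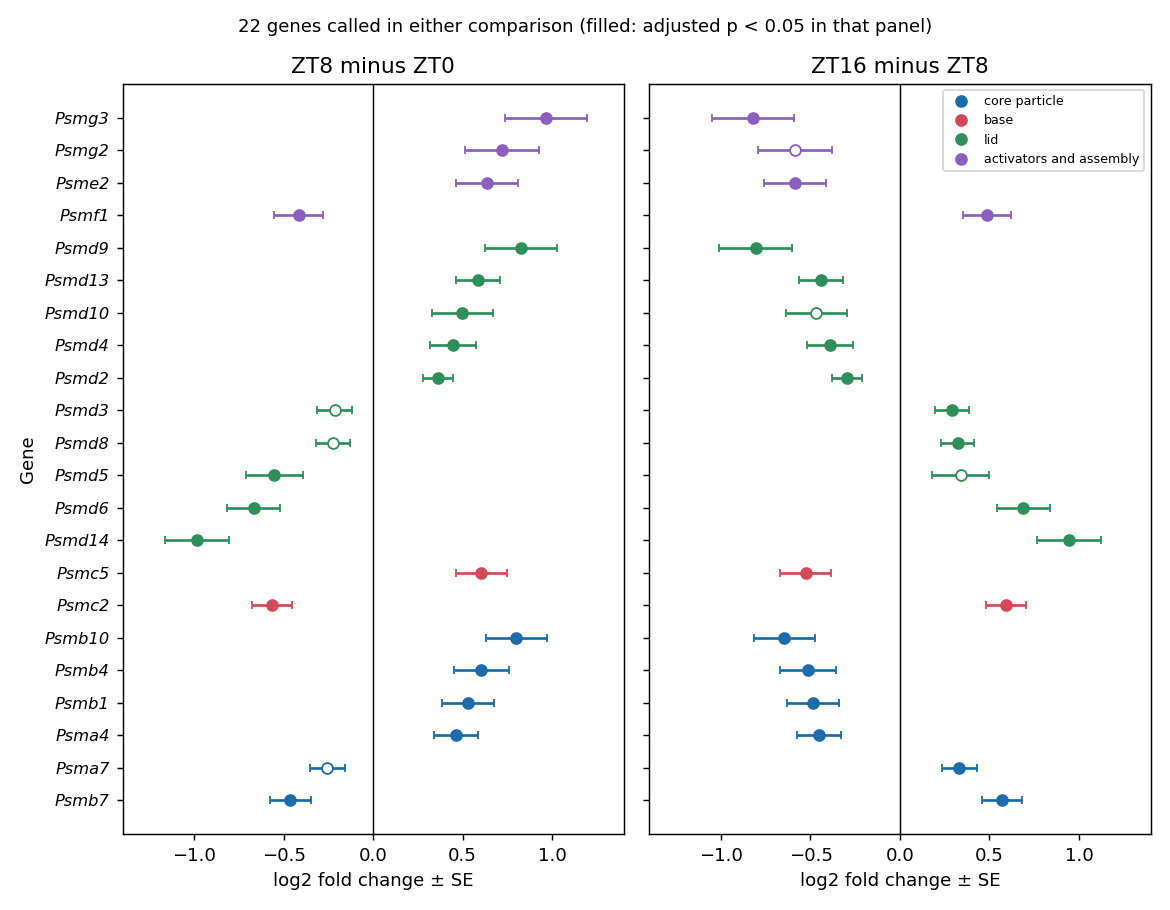
Log2 fold change ± SE of the 22 genes called in either comparison, ZT8 minus ZT0 on the left and ZT16 minus ZT8 on the right. Filled points passed an adjusted p of 0.05 in that panel, and each subcomplex has points on both sides of 0; the panels share the ZT8 libraries.

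Among activators and assembly factors, 3 of 10 genes rose from ZT0 to ZT8 and 1 fell. Psmg3, a chaperone of the alpha ring, had the largest positive change of all 47 genes. It had 39.9, 48.6 and 34.3 CPM at ZT0, 61.6, 68.6 and 75.0 at ZT4, 56.2, 95.1 and 87.3 at ZT8, 64.4, 57.0 and 41.8 at ZT12, 45.1, 29.3 and 61.3 at ZT16, then 42.1, 49.1 and 60.2 at ZT20. ZT8 lay above ZT0, while ZT8 replicate 1 lay below the highest libraries of ZT16 and ZT20. The fold changes were 0.97 ± 0.23 (adjusted p = 0.00960) and −0.82 ± 0.23 (adjusted p = 0.0202). Psmg2, a chaperone of another pair, gave 0.72 ± 0.21 (adjusted p = 0.0216) and −0.59 ± 0.21 (adjusted p = 0.0549). Its partner Psmg1 gave 0.48 ± 0.19 (adjusted p = 0.0852) and −0.21 ± 0.19. Psmg4, the partner of Psmg3, gave 0.56 ± 0.31 and −0.66 ± 0.31 and passed neither.

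Psme2, a subunit of an interferon-induced activator ring, had 27.3, 28.7 and 24.2 CPM at ZT0, 30.7, 45.6 and 40.7 at ZT4, 37.1, 42.1 and 45.2 at ZT8, 38.5, 40.1 and 28.3 at ZT12, 25.5, 23.9 and 33.6 at ZT16, then 34.0, 25.5 and 36.0 at ZT20. ZT8 lay above ZT0, ZT16 and ZT20, with 0.64 ± 0.17 (adjusted p = 0.0174) and −0.59 ± 0.17 (adjusted p = 0.0267). Psme1, which forms that ring with Psme2, had 12.9, 13.7 and 14.0 CPM at ZT0, 10.6, 12.0 and 10.2 at ZT4, 12.3, 9.55 and 10.5 at ZT8, 10.8, 13.9 and 11.6 at ZT12, 9.65, 12.4 and 13.3 at ZT16, then 13.0, 11.3 and 12.9 at ZT20. It gave −0.33 ± 0.16 (adjusted p = 0.170) and 0.13 ± 0.16 and passed neither comparison, and the difference between the partners was not tested. Psmf1, an inhibitor of the core particle in vitro, had 56.8, 48.7 and 52.3 CPM at ZT0, 44.3, 41.4 and 43.2 at ZT4, 46.9, 38.7 and 32.8 at ZT8, 52.1, 57.8 and 59.6 at ZT12, 63.3, 56.4 and 46.1 at ZT16, then 56.9, 46.4 and 49.2 at ZT20. ZT8 lay below ZT0, and its highest library was above the lowest of ZT16, with −0.42 ± 0.13 (adjusted p = 0.0379) and 0.49 ± 0.13 (adjusted p = 0.0196). Psme3 and Psme4, further activators, gave changes of 0.06 ± 0.10 and 0.10 ± 0.13 at ZT8 against ZT0 and passed neither comparison. Psme2b is a near-copy of Psme2, so its mean of 1.08 CPM may hold reads of the latter and is uncertain.

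Rhythm tests over all 6 time points gave fewer calls. By JTK_Cycle, a rank test against cosine curves of 20, 24 and 28 h, 0 of 47 genes passed after adjustment over genes, where 0.0385% of all genes did, and the lowest adjusted p was 0.0814. With adjustment over the curves within each gene alone, 18 genes had a p under 0.05 (38.3%, beside 15.9% of all genes). Of these, only Psmc4 fitted best at 24 h, and the others fitted best at 20 h. Sampling at 6 time points over 1 day separates these periods poorly. With the 24 h curves alone and adjustment over genes, 0 of the 47 genes passed (1 of all genes). A cosine of 24 h fitted to the counts with edgeR was called in 9 genes (19.1%, beside 6.24% of all genes). Those peaking in the light were Psmd9 at 7.35 h, Psmb4 at 7.75 h, Psmc5 at 7.86 h, Psmb10 at 7.95 h, Psmd4 at 8.04 h, Psmd13 at 8.59 h and Psmd2 at 8.82 h. Psmd6 at 18.3 h and Psmd14 at 19.3 h peaked in the dark. Fitted amplitudes, from mean to peak on the log2 scale, ran from 0.16 for Psmd2 to 0.40 for Psmd14. Any difference among the 6 time points was called in 9 genes as well (19.1%, beside 6.74% of all genes), namely Psmb7, Psmb10, Psmc2, Psmc5, Psmd6, Psmd9, Psmd13, Psmd14 and Psmg3. These 2 counts were unstable. The cosine was called in 0 genes without ZT0 replicate 2 or 3, ZT4 replicate 2 or 3, ZT8 replicate 2 or 3, ZT12 replicate 1, ZT16 replicate 1 or 2, or ZT20 replicate 1, and with the oligodendrocyte covariate. Over all genes the cosine calls went from 972 to between 2 and 213 under the same omissions and to 4 with the covariate. It was called in 14 genes without ZT12 replicate 3 (1610 of all genes), in 15 without ZT16 replicate 3 (1546) and in 19 without ZT20 replicate 3 (2668). Any difference was called in 0 genes without ZT0 replicate 1 or 3, ZT8 replicate 2 or 3, or ZT16 replicate 1. It was called in 2 to 4 genes without ZT4 replicate 2 or 3, ZT12 replicate 2, or ZT20 replicate 1 or 2, in 18 without ZT16 replicate 3 and in 19 without ZT8 replicate 1. Over all genes, any difference went from 1050 calls to between 5 and 124 where no proteasome gene was called, to between 167 and 603 where 2 to 4 were, and to 2058 and 2454 where 18 and 19 were. JTK_Cycle passed 6 genes without ZT16 replicate 3, of 752 among all genes.

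ZT20 against ZT8 gave 0 calls among the 47 genes with edgeR's quasi-likelihood test, as among all genes (0%), with a lowest adjusted p of 0.0663 for Psmb7. Before adjustment 20 genes had a p under 0.05, 12 of them lower and 8 higher at ZT20 (42.6%, beside 22.3% of all genes). DESeq2 called 11 genes in the same comparison, of 1114 among all genes. With edgeR, 17 were called without ZT8 replicate 1 (2320 of all genes) and 4 without ZT16 replicate 3 (578 of all genes).

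**Figure D4:**
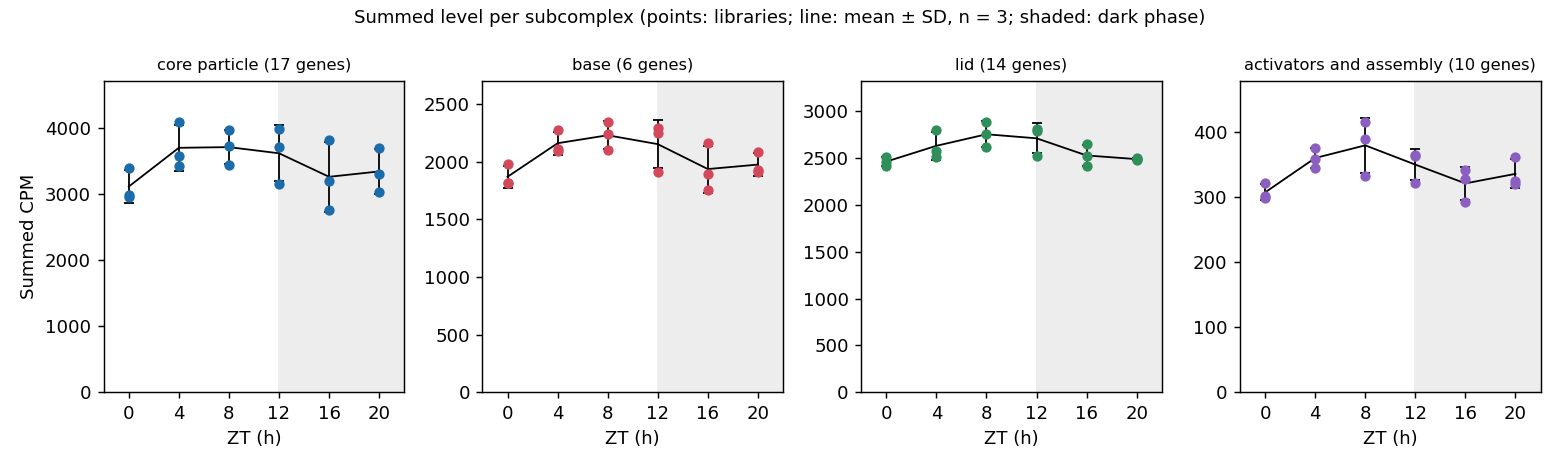
Summed CPM of the tested genes of each subcomplex against ZT, with 1 point per library and the line joining means ± SD (n = 3). The sums of ZT8 are above those of ZT0 in all 4 panels, by 3708 against 3111 CPM for the core particle.

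Sums over a subcomplex weigh abundant genes most. The core particle summed to 3111 ± 250 CPM (SD, n = 3) at ZT0, 3708 ± 260 at ZT8 and 3259 ± 533 at ZT16. The base summed to 1868 ± 94.2, 2228 ± 123 and 1935 ± 203 CPM at those times, and the Psmd genes to 2462 ± 44.2, 2754 ± 138 and 2528 ± 115 CPM. Activators and assembly factors summed to 308 ± 12.4, 380.2 ± 42.6 and 322 ± 25.6 CPM. Libraries of ZT8 lay above those of ZT0 in each sum, whereas ZT8 and ZT16 overlapped in each. The ratio of the summed base to the summed core particle lay between 0.556 and 0.638 over the 18 libraries, and its means by time point lay between 0.586 and 0.601. The ratio of the summed Psmd genes to the core particle ran from 0.676 to 0.876 over libraries, with means from 0.713 at ZT4 to 0.795 at ZT0. When each gene counts equally, the mean log2 change from ZT8 to ZT16 was −0.10 for the core particle, −0.06 for the base, 0.04 for the Psmd genes and −0.22 for activators and assembly factors. With Psmd genes placed by role it was −0.13 for the base and 0.30 for the lid, so the value for the lid depends on which genes are counted as lid. Sem1 of the lid (−1.13) and Adrm1 of the base (0.55) fall outside the symbol rule and are in neither mean. Sums and means over genes carried no test.

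The transcripts that moved in either direction were short, as are those of the whole family. The median transcript length was 1316 nt for the 11 genes higher at ZT8 than at ZT16, 1540.5 nt for the 8 lower ones and 1435 nt for the 28 others. Over all genes, the medians were 2130, 3065 and 3151 nt. The median GC content was 52.7%, 48.8% and 49.4% for the 3 sets of proteasome genes. Over all genes it was 50.1%, 53.0% and 50.4%, so the order of the higher and lower sets was the reverse. These are descriptions of the GENCODE M21 principal coding transcripts, with no test.

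Promoters were read from RefSeq (GRCm38.p6), where 41 of the 49 genes had an entry. The 250 bases before the start were searched on both strands for the E-box CACGTG, to which clock transcription factors bind, and for 9 other motifs, chosen after the values had been seen. Shares over all promoters count promoter entries, of which the 41 genes have 44. CACGTG was found in 4 of 41 genes (4 of 44 entries) and in 6.02% of all 32851 promoters. Its sequences are shown because 3 of the 4 genes were higher at ZT8. That choice followed the direction of change, and a link between motif and direction was not tested. They are given with the motif in capitals, 5′ to 3′ on the strand of the gene.
Psmd9, chr5:123228112-123228171, plus strand: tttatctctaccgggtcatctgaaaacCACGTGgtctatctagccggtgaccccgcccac
Psmb10, chr8:105938476-105938535, minus strand: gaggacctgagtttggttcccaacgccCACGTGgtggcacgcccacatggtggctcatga
Psma4, chr9:54950692-54950751, plus strand: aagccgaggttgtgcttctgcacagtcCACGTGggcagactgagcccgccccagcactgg
Psme3, chr11:101316142-101316201, plus strand: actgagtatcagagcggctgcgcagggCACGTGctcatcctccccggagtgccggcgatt

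Counted from the transcript start of the promoter table, the motif starts 51 bases before Psmd9, 116 before Psmb10, 140 before Psma4 and 44 before Psme3. For Psma4 and Psmb6 that start lies inside the RefSeq gene span, whose own start is further upstream. Psmd9, Psmb10 and Psma4 rose from ZT0 to ZT8 as given above, and Psme3 did not pass, with 0.06 ± 0.10. A match describes these letters and is no evidence of binding. The D-box TTATGTAA, a site of other clock factors, was found in 0 of 41 genes and in 0.819% of all promoters. The core of the antioxidant response element, TGACNNNGC, which the regulator encoded by Nfe2l1 can bind, was found in 5 genes (Psmb5, Psmb6, Psmc6, Psmd9, Psmd12) and in 10.2% of all promoters. It is shown for the catalytic subunits Psmb5 and Psmb6, which passed neither comparison, with the motif in capitals.
Psmb5, chr14:54618007-54618069, minus strand: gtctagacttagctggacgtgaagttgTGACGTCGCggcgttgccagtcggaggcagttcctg
Psmb6, chr11:70525321-70525356, plus strand: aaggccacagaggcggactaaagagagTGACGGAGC

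The remaining motifs were CANNTG in 23 of 41 genes (66.2% of all promoters), AGGTCA in 9 (14.0%), TGANNNNGC in 16 (35.2%), CCAAT in 14 (33.9%), GGGCGG in 22 (32.7%), CGGAAG in 19 (13.6%) and the nuclear respiratory factor site in 1 (0.782%). CANNTG includes every CACGTG, and TGANNNNGC includes every TGACNNNGC. Of the genes higher at ZT8, Psmd2, Psmd4, Psmd13 and Psma4 hold CGGAAG, and so do Psmd6, Psmd8, Psmd14 and Psmc2, which were lower.

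Against the pooled input, most proteasome genes stood at a higher level in the immunoprecipitates. Since there is 1 input library, this comparison has no replicate check and no test. It is described by the ratio of the mean CPM of the 18 immunoprecipitates to the input, on a scale set over all 19 libraries. Of 47 genes, 34 were at least 2-fold above the input with all 18 libraries above it (72.3%, beside 14.1% of the 16828 genes compared), and 1 was at least 2-fold below it (2.13%, beside 25.3%). The median log2 ratio was 1.21 for the proteasome genes and −0.13 for all genes compared. Scaling by library totals shifted the median of all genes by −0.29 and left 19 genes at least 2-fold above (1527 of all genes). The distance between the medians of proteasome and all genes was 1.34 under each of the 4 scalings. A scaling shifts every log2 ratio by nearly the same amount, so this distance could hardly change and is no check.

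**Figure D5:**
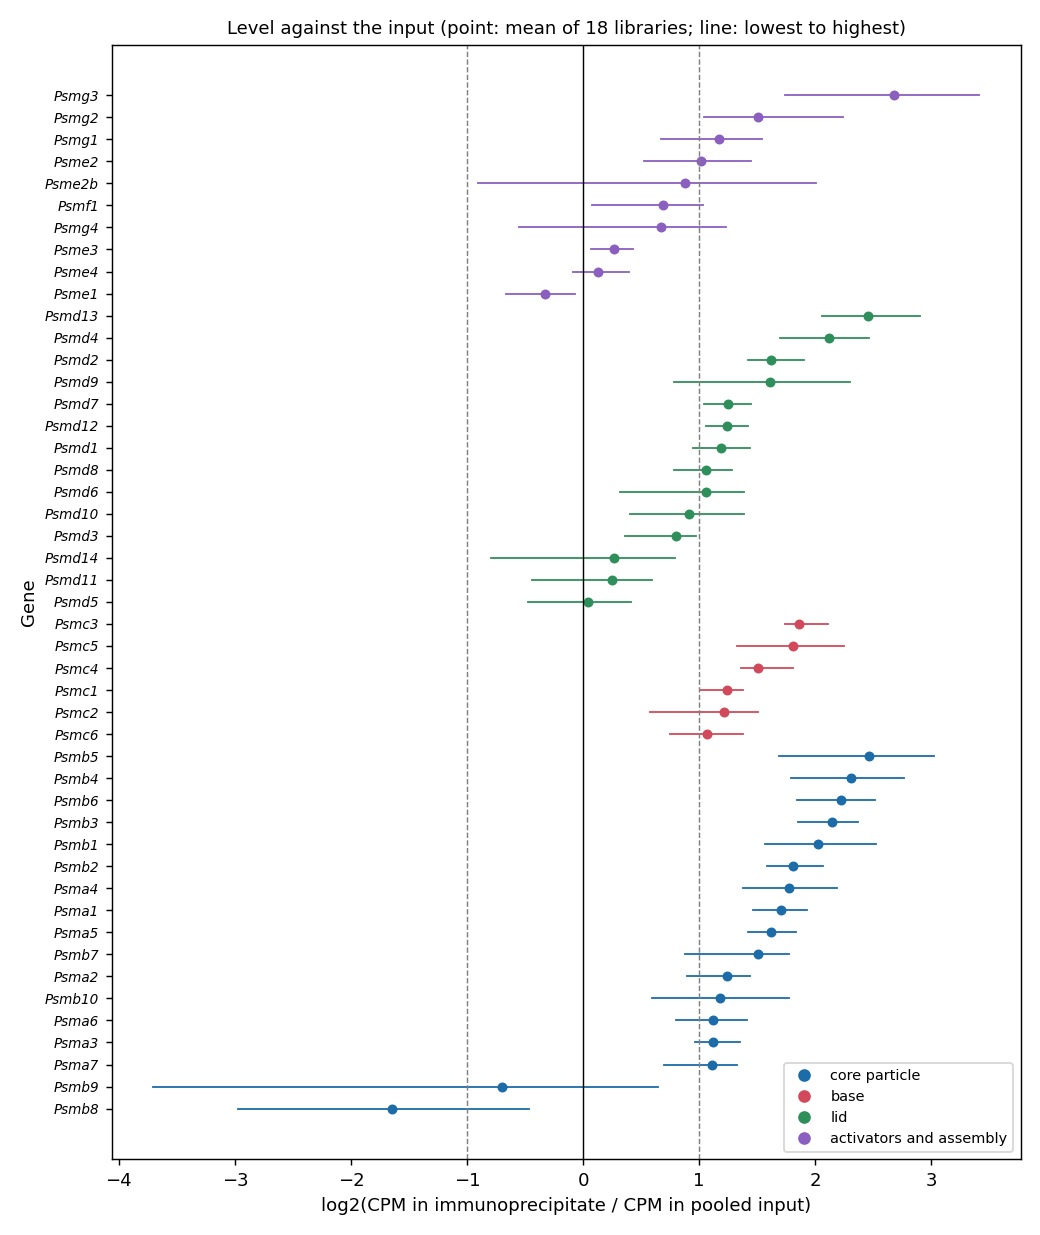
Log2 ratio of CPM in the immunoprecipitates to CPM in the pooled input for 47 genes by subcomplex, with a point for the mean of 18 libraries and a line from the lowest to the highest library; dashed lines mark a 2-fold ratio. Psmb8 lies below the input at −1.65, and Psmg3 has the highest ratio, 2.68.

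The core particle had the highest median log2 ratio, 1.62, with 15 of 17 genes at least 2-fold above the input, followed by the base with 1.37 and 6 of 6 genes. The Psmd genes had a median of 1.12 with 9 of 14, and activators and assembly factors 0.78 with 4 of 10. The highest ratios were those of Psmg3 (2.68), Psmb5 (2.46) and Psmd13 (2.45). Among the constitutive catalytic subunits, Psmb5 had 70.3 CPM in the input (exact Poisson 95% interval 66.5 to 74.2, counting error only) and 227 to 570.3 CPM in the immunoprecipitates, with a median of 377. Psmb6 had 90.5 CPM (86.2 to 94.9) and 324 to 518 CPM, with a median of 421, and Psmb7 had 103.5 CPM (98.9 to 108) and 191 to 354 CPM, with a median of 306. All 18 libraries lay above the input for each of the 3.

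The inducible subunits parted from one another. Psmb8 had 3.78 CPM in the input (2.95 to 4.78) and 0.482 to 2.74 CPM in the immunoprecipitates, with a median of 0.986, so that all 18 libraries lay below the input. Psmb9, which is encoded near Psmb8 on chromosome 17, had 0.703 CPM in the input (0.374 to 1.20, from 13 counts) and 0.0539 to 1.10 CPM in the immunoprecipitates, and the 2 were not separable at this depth. Psmb10, on chromosome 8, had 23.8 CPM in the input (21.7 to 26.2) and 36.0 to 81.7 CPM in the immunoprecipitates, with a median of 52.7, so that all 18 lay above. All 3 subunits are known to be induced by interferon and to be abundant in immune cells. Microglia markers had a median log2 ratio of −3.88, and their part in the ratios of Psmb8 and Psmb9 was not tested.

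Psme1 and Psme2 also differed. Psme1 had 15.1 CPM in the input (13.4 to 17.0) and 9.53 to 14.4 CPM in the immunoprecipitates, a log2 ratio of −0.33 with all 18 below. Psme2 had 16.9 CPM (15.0 to 18.8) and 24.3 to 45.9 CPM, a log2 ratio of 1.01 with all 18 above. Psmd5, Psme4, Psmd11, Psme3 and Psmd14 had log2 ratios of 0.04, 0.13, 0.25, 0.27 and 0.27, which turned negative under library totals. For Psmd14, the immunoprecipitates ran from 27.6 to 83.0 CPM and the input stood at 47.9 CPM (44.8 to 51.2), so the libraries lay on both sides of it. Psmb11 had 0 counts in the input.

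Levels per kilobase of transcript, as the mean of 18 immunoprecipitates, had medians of 132.5 CPM in the core particle, 176 CPM in the base, 83.9 CPM in the Psmd genes and 15.3 CPM in activators and assembly factors. Psmc5 had the highest level, 583 CPM per kilobase, followed by Psmb6 with 525 CPM per kilobase. Psmd14 had 37.1 CPM per kilobase, beside 119 for its partner Psmd7 and 147 for Psmd13.

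Other genes of the pathway, from a fixed list of which 27 were tested, had calls in both directions. In ZT8 against ZT0, 5 of 27 rose (18.5%, beside 8.95% of all genes) and 3 fell (11.1%, beside 9.02%). In ZT16 against ZT8, 4 rose (14.8%, beside 9.11%) and 6 fell (22.2%, beside 7.8%). Pomp, the maturation factor of the core particle, rose by 0.96 ± 0.23 (adjusted p = 0.00945) from ZT0 to ZT8 and gave −0.91 ± 0.23 (adjusted p = 0.0122) at ZT16 against ZT8. Sem1, a small subunit of the lid, gave 1.22 ± 0.27 (adjusted p = 0.00766) and −1.13 ± 0.27 (adjusted p = 0.0104). Akirin2, which brings proteasomes into the nucleus, gave 0.53 ± 0.17 (adjusted p = 0.0329) and −0.68 ± 0.17 (adjusted p = 0.0114). Adrm1, a ubiquitin receptor of the base, moved the other way, with −0.48 ± 0.14 (adjusted p = 0.0246) and 0.55 ± 0.14 (adjusted p = 0.0148).

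Genes for ubiquitin, its activation and its shuttling were among those called. Rps27a, which encodes ubiquitin fused to a ribosomal protein, gave 1.09 ± 0.25 (adjusted p = 0.00860) and −0.99 ± 0.25 (adjusted p = 0.0130). Uba1, the main ubiquitin-activating enzyme, gave the largest changes among the called genes of the list, with −1.29 ± 0.25 (adjusted p = 0.00567) and 1.42 ± 0.25 (adjusted p = 0.00575). The shuttle factor Ubqln1 gave 0.46 ± 0.12 (adjusted p = 0.0150) and −0.45 ± 0.12 (adjusted p = 0.0175). Nfe2l1, whose protein raises transcription of proteasome genes when the proteasome is impaired, gave 0.07 ± 0.08 at ZT16 against ZT8, and none of the 4 regulators listed (Nfe2l1, Ddi2, Ngly1, Vcp) passed edgeR's test in either comparison. Before adjustment, their p at ZT16 against ZT8 lay between 0.0670 and 0.417. At ZT8 against ZT0, Ddi2, with a mean of 1.31 CPM, had −2.28 ± 1.03 and a p of 0.0384 before adjustment by edgeR (adjusted p = 0.133).

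The 2 genes named for binding a subunit stood apart from each other. Psme3ip1 gave 0.47 ± 0.12 (adjusted p = 0.0150) at ZT8 against ZT0 and −0.42 ± 0.12 (adjusted p = 0.0267) at ZT16 against ZT8, with a cosine peak at 8.14 h and a log2 ratio to the input of 1.20. Psmc3ip, a factor of meiotic recombination, had a mean of 0.565 CPM and passed neither comparison.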

How the data were processed

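Ribosome-bound mRNA of 18 immunoprecipitates and 1 pooled input was sequenced, and all samples were processed on the same day per the methods. Per the labels and methods, the authors aligned reads with STAR 2.7.5 to mm10 and deposited RSEM expected counts per gene, not normalized. RSEM divides reads that fit several genes by a model, so near-copies are uncertain. The deposited expected counts were rounded here. Genes were kept by filterByExpr, libraries scaled by TMM, and quasi-likelihood tests run in edgeR 4.0.16 (R 4.3.3) on the 18 immunoprecipitates, with Benjamini-Hochberg adjustment over all 15572 genes. SEs were the log2 fold change over the square root of F. JTK_Cycle used 18 templates at steps of 2 h. The input, a single library, was compared without a test. DESeq2 1.42.0, other scalings, filters, covariates and left-out libraries were alternatives. The tests were checked on simulated counts, drawn independently for each gene and without shifts shared by the genes of a library. That check does not cover the dependence on single libraries.

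Libraries held 6302150 to 22406844 counts, and the common coefficient of variation between replicates was 19.2%. Members and lists were chosen with earlier results of these data known. By the rule for named genes, every member called was named, and values in every library were given for up to 3 core genes, and up to 2 of each other group, per direction of ZT16 against ZT8, by the lowest p of any difference among time points. Each replicate was 1 spinal cord. Coordinates are 1-based RefSeq positions matched by symbol. 1 gene of the pathway list is not reported here by name.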

Additional observations from a re-analysis of the deposited data

How the results depend on the processing

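Of 1102 log2 fold changes of called genes under the alternatives, 876 stayed past the threshold, 226 did not, and 0 turned their direction. The alternatives re-use the same libraries, so the absence of turns is no independent check. The 3 other scalings of library size kept all 6 counts over time within 1.5 times. With genes of at least 1 count, the cosine was called in 17 genes, any difference in 18 and ZT20 against ZT8 in 12. Over all genes these calls were 2349, 2767 and 1641, beside 972, 1050 and 0 in the main run. DESeq2 tests called 17, 19 and 11, of 2312, 2502 and 1114 among all genes. The oligodendrocyte covariate left 0 cosine calls (4 of all genes). JTK_Cycle adjusted within the gene called 18 (2469 of all genes). Against the input, library totals left 19 genes at least 2-fold above (1527 of all genes). Grouped by role, without Sem1 and Adrm1, the mean change from ZT8 to ZT16 was −0.13 in the base and 0.30 in the lid.

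Leaving out a replicate number or a single library gave 0 to 6 genes by JTK_Cycle, 0 to 19 by the cosine, 0 to 19 by any difference, 0 to 22 in ZT8 against ZT0, 0 to 26 in ZT16 against ZT8 and 0 to 17 in ZT20 against ZT8. Over all genes the lowest count was 0 in each. The highest counts over all genes were 752, 2668, 2454, 4010, 3885 and 2320 in the same order. Against the input, 33 to 34 genes were at least 2-fold above and 1 below.

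The labels do not say whether libraries with the same replicate number share anything. Deviations from the time point means of same-numbered libraries correlated between −0.151 and 0.176 over 45 pairs. For different numbers the range was −0.210 to 0.183 over 90 pairs. Such correlations over all genes cannot exclude a batch shared by a replicate number. With a replicate block, 2 genes passed JTK_Cycle, 7 the cosine, 7 any difference, 18 ZT8 against ZT0, 19 ZT16 against ZT8 and 0 ZT20 against ZT8. Over all genes these were 356, 774, 1004, 2756, 2582 and 7, where JTK_Cycle without the block passed 6. Depth limits Psmb8, Psmb9, Psme2b, Psma8 and Psmb11.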
